A study of Mus musculus with 6 samples.

Results

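The 10 genes described here are the 3 members of the GADD45 family (Gadd45a, Gadd45b and Gadd45g) and 7 genes known as transcriptional targets of p53 (Cdkn1a, Mdm2, Trp53inp1, Ccng1, Sesn2, Btg2 and Phlda3). They were taken by symbol from an Affymetrix expression table that held 17097 genes under a single symbol, and all 10 were measured. The table covers pro-B cells, B cell precursors of the bone marrow, sorted as B220+CD43+IgM- cells from mice. Cells of wild-type mice were hybridised to 3 arrays, and so were cells labelled HDAC7 deficient, which came from conditional mice (3 arrays); HDAC7 is a class IIa histone deacetylase. The labels call the arrays of each genotype biological triplicates. The labels give neither the Cre line that removed HDAC7 and the cells in which it acts, nor the strain, age and sex of the mice. No agent or time point is named for either genotype.

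The transcription factor p53 is stabilised when DNA is damaged or cells are stressed, and it then switches on genes that halt the cell cycle, repair DNA, restrain growth or start cell death. One of its targets, Mdm2, encodes the ubiquitin ligase that degrades p53, which makes a feedback loop. GADD45 proteins are small stress sensors that bind the kinase MTK1, PCNA and the CDK1-cyclin B complex; Gadd45a is a p53 target, whereas Gadd45b and Gadd45g are known mainly as genes induced by NF-kB, TGF-beta and cytokine signals. Pro-B cells cut their own DNA during V(D)J recombination, and p53 is a known checkpoint at that step.

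Windows of RefSeq sequence around the transcription start (GRCm38.p6, 250 bases before to 50 after) were found for 9 of the 10 genes, 10 windows in all because Cdkn1a had 2 starts; Trp53inp1 was not matched. The 250 bases before the start are shown for the GADD45 genes, because the family is described first. For Cdkn1a, Btg2 and Mdm2, as for the GADD45 genes, every HDAC7-deficient array read above every wild-type array. The 250 bases are shown for Cdkn1a and Btg2 too, but not for Mdm2. Each runs 5′ to 3′ on the gene's strand, and capitals mark matches to any of 6 motifs searched on both strands: the p53 half-site, the NF-kB motif, AP-1 (TGANTCA), CRE (TGACGTCA), the CCAAT box (CCAAT) and the octamer (ATTTGCAT).
Gadd45a, chr6:67037408-67037657, minus strand: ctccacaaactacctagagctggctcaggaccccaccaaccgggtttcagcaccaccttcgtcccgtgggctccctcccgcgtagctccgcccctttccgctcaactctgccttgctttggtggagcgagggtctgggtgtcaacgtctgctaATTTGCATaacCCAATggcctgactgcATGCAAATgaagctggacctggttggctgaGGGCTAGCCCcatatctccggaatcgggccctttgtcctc
Gadd45b, chr10:80929841-80930090, plus strand: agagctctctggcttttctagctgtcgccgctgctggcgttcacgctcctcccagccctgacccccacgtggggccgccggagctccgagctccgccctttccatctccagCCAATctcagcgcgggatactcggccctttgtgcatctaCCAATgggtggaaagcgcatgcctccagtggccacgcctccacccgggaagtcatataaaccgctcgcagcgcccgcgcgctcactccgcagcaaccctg
Gadd45g, chr13:51846425-51846674, plus strand: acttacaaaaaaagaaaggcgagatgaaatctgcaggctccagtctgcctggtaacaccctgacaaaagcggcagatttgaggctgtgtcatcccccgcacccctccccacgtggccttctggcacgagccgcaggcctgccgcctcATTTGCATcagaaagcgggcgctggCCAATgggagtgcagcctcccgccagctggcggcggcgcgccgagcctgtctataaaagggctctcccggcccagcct
Cdkn1a, upstream start, chr17:29090729-29090978, plus strand: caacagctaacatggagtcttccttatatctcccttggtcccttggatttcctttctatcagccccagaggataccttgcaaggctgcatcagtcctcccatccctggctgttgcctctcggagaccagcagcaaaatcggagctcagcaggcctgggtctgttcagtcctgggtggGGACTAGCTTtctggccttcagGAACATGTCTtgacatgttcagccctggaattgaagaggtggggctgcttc
Btg2, chr1:134079156-134079405, minus strand: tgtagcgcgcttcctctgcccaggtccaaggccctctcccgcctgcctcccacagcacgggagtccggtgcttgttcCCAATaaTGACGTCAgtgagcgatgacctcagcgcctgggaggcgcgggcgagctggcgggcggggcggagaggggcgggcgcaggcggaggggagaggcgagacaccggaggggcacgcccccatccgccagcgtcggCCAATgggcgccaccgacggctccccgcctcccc

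All 3 GADD45 windows held a CCAAT box, and Gadd45a and Gadd45g also held octamers. In Gadd45a an octamer at -97 to -90 and its reverse complement at -70 to -63, counted from the start, lay on either side of the CCAAT box at -86 to -82. Octamers were in 1.74% of all 32851 windows of the same length, and CCAAT boxes in 37.4%. Across the 9 genes with a window, 7 held a CCAAT box. The p53 half-site was matched in Gadd45a, Mdm2, Ccng1 and the upstream window of Cdkn1a, and in 8.36% of all windows. In Cdkn1a its match GAACATGTCT lay at -51 to -42 and another, GGACTAGCTT, at -73 to -64. Btg2 held the CRE at -166 to -159, a motif of 1.79% of all windows. AP-1 and NF-kB motifs, in 7.81% and 8.46% of all windows, were matched in none of the members' windows. Matches of different motifs did not overlap in these windows. A match says only that the letters are present.

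The arrays were unequal in quality. Correlations over all probe sets between wild-type replicate 3 and the other 5 arrays were 0.70 to 0.82, its interquartile range was 1.72 against 2.27 to 2.93, and its Actb signal at the 3′ end exceeded that of the middle by 1.69 against 0.16 to 0.26. Differences of the members are therefore also given without that array. The 18 hybridisation control probe sets divided the arrays across genotypes, with means of 8.64 to 9.17 on HDAC7-deficient replicate 1 and the first and second wild-type replicates (control-low) and 9.99 to 10.78 on the other 3 arrays (control-high). Xist divided them in the same way, at 4.87 to 5.38 on the control-low arrays. It read 8.51 on wild-type replicate 3 and 11.40 and 11.27 on HDAC7-deficient replicates 2 and 3. The labels do not give the sex of the mice, and whether it differed between these arrays was not tested. Hdac7 itself had a difference of 0.97 ± 0.59 (standard error; limma adjusted p = 0.399), or 0.31 without wild-type replicate 3, and so did not read lower in HDAC7 deficient; the labels do not say which exons were removed, so this does not check the labels. Pro-B markers were measured for 13 genes, with Vpreb1 at 9.97 to 11.53, Ebf1 at 10.15 to 10.48 and Cd79a at 8.34 to 10.04 on the 6 arrays.

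Values are log2 expression, so a difference of 1 is a 2-fold change, and differences are HDAC7 deficient minus wild type. Of the 10 genes, 8 had higher means on the arrays labelled HDAC7 deficient and 2, Trp53inp1 and Phlda3, had lower means. The median difference of the 10 was 0.82, against -0.03 over all genes. A difference above 0 was found for 48% of all genes. With the dimmest 50% of genes left out, that share was 77.8%. Of the 9 members kept, 8 had a difference above 0. For 6 genes (Gadd45a, Gadd45b, Gadd45g, Cdkn1a, Mdm2 and Btg2) all 3 HDAC7-deficient arrays lay above all 3 wild-type arrays, as did 9.45% of all genes. For 1 gene, Phlda3, they all lay below, as did 16.8% of all genes. None of the 10 passed limma's test at an adjusted p of 0.05, and neither did any other gene (0 of 17097, 0%). The call depended on how arrays were weighted. With limma's gene-by-gene array weights 8 of the 10 passed, all but Trp53inp1 and Ccng1, as did 8449 of the 17097 genes. Those weights were 8.68, 0.471 and 0.0716 for wild-type replicates 1 to 3, so wild type then rested mostly on replicate 1. Without weights, Gadd45a and Gadd45g were higher and Phlda3 lower at an unadjusted p under 0.05, against 3.52% of all genes higher and 9.14% lower. With 3 arrays in each group, the smallest two-sided p of an exact permutation test is 0.1. The same adjusted p, 0.377, recurs below because the adjustment gives neighbouring genes a common value. In sorted but bulk samples, more cells that express a gene and more RNA of it per cell cannot be told apart.

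**Figure D1:**
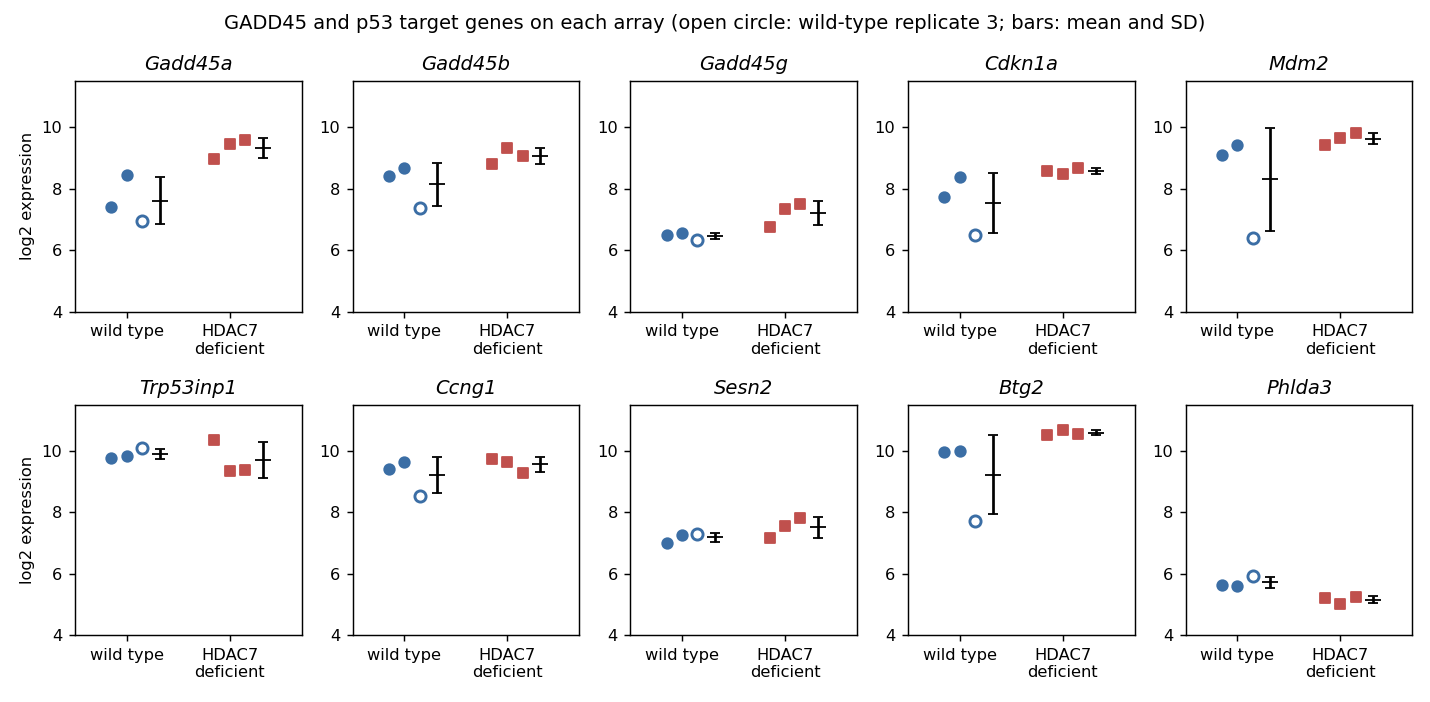
Log2 expression (vertical axis) of each of the 10 genes on the 3 wild-type arrays (blue circles; wild-type replicate 3 is open) and the 3 HDAC7-deficient arrays (red squares), with the mean and SD of each group as bars. The groups do not overlap for Gadd45a, Gadd45b, Gadd45g, Cdkn1a, Mdm2, Btg2 and Phlda3; wild-type replicate 3 is the lowest of the 6 arrays for 7 genes.

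Much of the difference for several genes came with wild-type replicate 3, which was the lowest of the 6 arrays for 7 of the 10 genes and the highest for 1, Phlda3. Without it the median difference of the 10 was 0.45, against -0.05 over all genes. The same 8 genes still had positive differences (43.2% of all genes did). Within the control-low arrays 9 of the 10 were higher (45.9% of all genes) and within the control-high arrays 8 (45.8%), with medians of 0.24 and 1.45. The only HDAC7-deficient array among the control-low arrays was replicate 1, so each control-low difference rests on it. Every control-high difference, here and below, has wild-type replicate 3 as its only wild-type reading. Without wild-type replicate 3, 6 genes lay wholly above wild type (11.8% of all genes) and 1 below (19%). Gadd45a, Gadd45b, Gadd45g and Btg2 were then higher and Phlda3 lower at an unadjusted p under 0.05, against 5.19% and 8.84% of all genes, and again no gene of 17097 passed in limma (0%; smallest adjusted p = 0.0645). Strongly expressed genes as a class read low on that array. The 4275 genes of highest mean expression, among them 7 of the 10, had a median difference of 0.56 with all arrays and 0.06 without it.

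The GADD45 genes, the stress sensors of the group, all read higher on the arrays labelled HDAC7 deficient. Gadd45a read 7.41, 8.46 and 6.95 on wild-type replicates 1 to 3 and 8.96, 9.46 and 9.58 on HDAC7-deficient replicates 1 to 3. Every HDAC7-deficient value was thus above every wild-type value, by at least 0.50. The group means of Gadd45a were 7.61 ± 0.77 and 9.33 ± 0.33 (SD, n = 3 each), a difference of 1.72 ± 0.45 (standard error), or 3.30-fold, with a 95% interval of 0.66 to 2.79 and a limma adjusted p of 0.377. This was the largest difference among the 10 genes, and it lay at percentile 99.7 of all genes. Gadd45a kept a difference of 1.40 ± 0.33 without wild-type replicate 3 (limma adjusted p = 0.202), with 1.02 within the control-low and 2.57 within the control-high arrays.

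Gadd45b, long known as a myeloid differentiation and NF-kB response gene, read 8.41, 8.67 and 7.36 in wild type and 8.79, 9.32 and 9.06 in HDAC7 deficient. The groups were separate by only 0.12, and the lowest wild-type value was again that of replicate 3. Its difference was 0.91 ± 0.42 (95% interval -0.08 to 1.90, limma adjusted p = 0.377), and 0.51 ± 0.22 without that array. Within the control-low arrays the difference of Gadd45b was 0.24, and within the control-high arrays 1.83.

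Gadd45g, the family member known as a cytokine response gene, read 6.49, 6.55 and 6.34 in wild type, a spread of 0.11 (SD). It read 6.76, 7.34 and 7.50 in HDAC7 deficient, so replicate 1 lay close to wild type and replicates 2 and 3 apart from it. The difference of Gadd45g was 0.74 ± 0.27 (95% interval 0.10 to 1.37, limma adjusted p = 0.377) and hardly depended on wild-type replicate 3, at 0.68 ± 0.27 without it. It was 0.24 within the control-low and 1.07 within the control-high arrays.

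**Figure D2:**
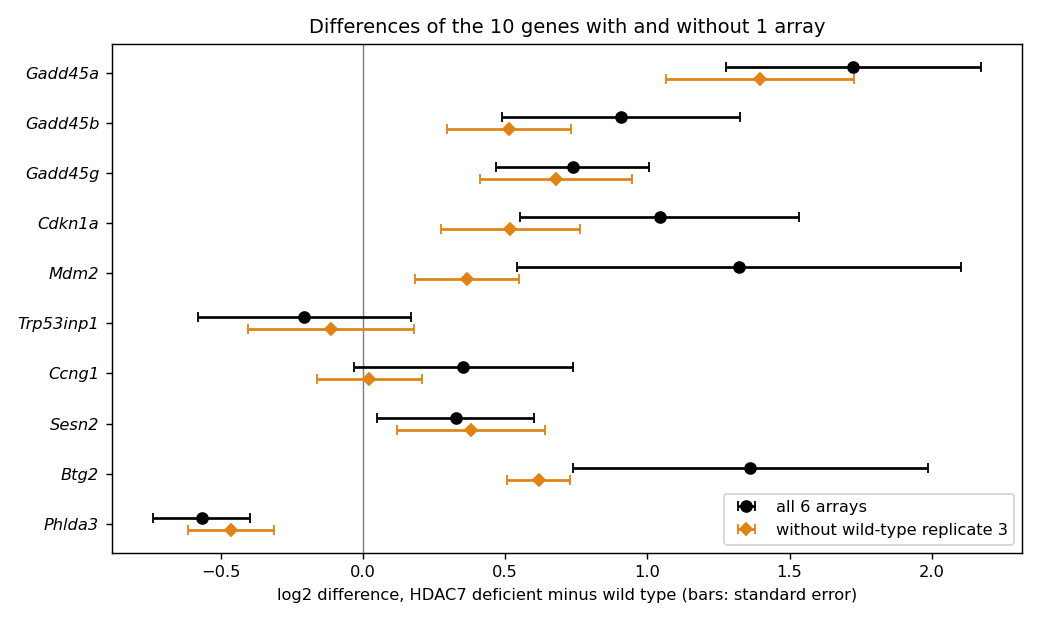
Log2 difference between HDAC7-deficient and wild-type arrays (horizontal axis; bars are standard errors) for each of the 10 genes, with all 6 arrays (black circles) and without wild-type replicate 3 (orange diamonds). Gadd45a stands highest in both, at 1.72 and 1.40, while Mdm2 and Btg2 come down from 1.32 and 1.36 to 0.37 and 0.62.

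Among the genes that act on the cell cycle, Btg2, an antiproliferative gene that p53 and growth signals both induce, showed the clearest separation. It read 9.95, 9.99 and 7.74 in wild type and 10.53, 10.68 and 10.55 in HDAC7 deficient. Wild-type replicates 1 and 2 and the 3 HDAC7-deficient arrays each agreed closely, and replicate 3 of wild type lay 2.23 below the mean of the other wild-type arrays. Its difference was 1.36 ± 0.63 (95% interval -0.12 to 2.84, limma adjusted p = 0.377) with all arrays. Without that array it was smaller and more precise, at 0.62 ± 0.11 (limma adjusted p = 0.122, the lowest of the 10 genes in that fit). The difference of Btg2 was 0.56 within the control-low and 2.88 within the control-high arrays.

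Cdkn1a encodes p21, the inhibitor of cyclin-dependent kinases that carries the p53 arrest. Cdkn1a read 7.73, 8.38 and 6.48 in wild type and 8.56, 8.49 and 8.67 in HDAC7 deficient. The wild-type arrays were spread widely (SD 0.97), the HDAC7-deficient arrays narrowly (SD 0.09), and the groups were separate by 0.10. Its difference was 1.04 ± 0.49 (limma adjusted p = 0.377), and 0.52 ± 0.24 without wild-type replicate 3. Within the control-low arrays it was 0.51, within the control-high arrays 2.10.

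Mdm2, the ubiquitin ligase of the p53 feedback loop, read 9.10, 9.42 and 6.39 in wild type and 9.43, 9.64 and 9.80 in HDAC7 deficient. The groups were separate by 0.013 only, and wild-type replicate 3 lay 2.87 below the mean of the other wild-type arrays. The difference of Mdm2 was 1.32 ± 0.78 (limma adjusted p = 0.395) and came down to 0.37 ± 0.18 without that array. It was 0.17 within the control-low and 3.33 within the control-high arrays.

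Ccng1, which encodes cyclin G1, a partner of the phosphatase that acts on MDM2, did not separate the groups. It read 9.42, 9.65 and 8.54 in wild type and 9.74, 9.65 and 9.29 in HDAC7 deficient. Its difference of 0.35 ± 0.39 (95% interval -0.56 to 1.26, limma adjusted p = 0.547) was 0.02 ± 0.18 without wild-type replicate 3 and -0.10 after quantile normalization. It was 0.20 within the control-low and 0.93 within the control-high arrays.

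The remaining 3 genes act in death, metabolism and growth signalling, and they did not follow a single direction. Trp53inp1, whose product promotes p53-dependent death and autophagy, read 9.78, 9.84 and 10.09 in wild type and 10.36, 9.36 and 9.38 in HDAC7 deficient. HDAC7-deficient replicate 1 was thus the highest of the 6 arrays and replicates 2 and 3 the lowest. The difference was -0.21 ± 0.37 (95% interval -1.09 to 0.68, limma adjusted p = 0.709) and -0.11 without wild-type replicate 3. Its sign turned within the control-low arrays, to 0.55, against -0.73 within the control-high arrays.

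Sesn2 encodes sestrin 2, a stress protein that restrains mTORC1. Sesn2 read 7.02, 7.26 and 7.30 in wild type and 7.17, 7.54 and 7.83 in HDAC7 deficient, and the groups overlapped through HDAC7-deficient replicate 1. Its difference was 0.33 ± 0.28 (limma adjusted p = 0.469), 0.38 ± 0.26 without wild-type replicate 3, and -0.060 after quantile normalization. It was 0.03 within the control-low and 0.39 within the control-high arrays.

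Phlda3, a p53 target whose product blocks AKT at the membrane, was the 1 gene wholly lower on the HDAC7-deficient arrays. It read 5.64, 5.62 and 5.94 in wild type and 5.22, 5.03 and 5.24 in HDAC7 deficient, with the groups separate by 0.38. The difference was -0.57 ± 0.17 (95% interval -0.97 to -0.16, limma adjusted p = 0.377), -0.47 ± 0.15 without wild-type replicate 3 (limma adjusted p = 0.276), and -0.41 and -0.80 within the control-low and control-high arrays. Phlda3 was also the only member below the median gene in mean expression, at percentile 28, and the deposited values give no detection call for it.

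The 10 genes were covered by 17 probe sets, and the brightest of each gene gave the values above. For Btg2 and Cdkn1a the further probe set repeated the order of the groups. The other Btg2 probe set read 9.28, 9.63 and 6.19 in wild type and 9.95, 10.35 and 10.21 in HDAC7 deficient, again without overlap (difference 1.80 ± 0.87, or 0.72 without wild-type replicate 3). For Cdkn1a the other probe set read 6.97, 7.70 and 6.53 against 8.05, 7.84 and 7.71 (0.80 ± 0.35, or 0.54 without that array), with the closest pair of arrays nearly equal.

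The dimmer Mdm2 probe set gave 7.01, 7.46 and 7.23 in wild type and 7.83, 7.79 and 7.63 in HDAC7 deficient. On it wild-type replicate 3 lay between the other wild-type arrays, and the difference was 0.51 ± 0.25 with all arrays and 0.51 without that array. The control-low and control-high arrays gave 0.59 and 0.48. The Mdm2 difference of 1.32 from the brightest probe set thus rested on a reading of wild-type replicate 3 that the other probe set did not share.

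Trp53inp1 had probe sets that disagreed. Its other probe set read 9.58, 9.92 and 7.44 in wild type and 10.16, 9.70 and 9.68 in HDAC7 deficient, a difference of 0.87 ± 0.65 in the opposite direction to the brightest, or 0.10 without wild-type replicate 3. That array read 10.09 on 1 probe set and 7.44 on the other. The mean over both probe sets gave Trp53inp1 a difference of 0.33.

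For Sesn2 the other probe set gave a larger difference, 0.77 ± 0.34, or 0.55 without wild-type replicate 3. Ccng1 had 2 further probe sets, at 0.37 ± 0.36 and 0.67 ± 0.45 (0.24 and 0.36 without that array), each with overlapping groups. None of the 17 passed when the fit was made over all 45037 probe sets, where no probe set passed an adjusted p of 0.05 in limma (0%; 2689 probe sets, 5.97%, were higher at an unadjusted p under 0.05).

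**Figure D3:**
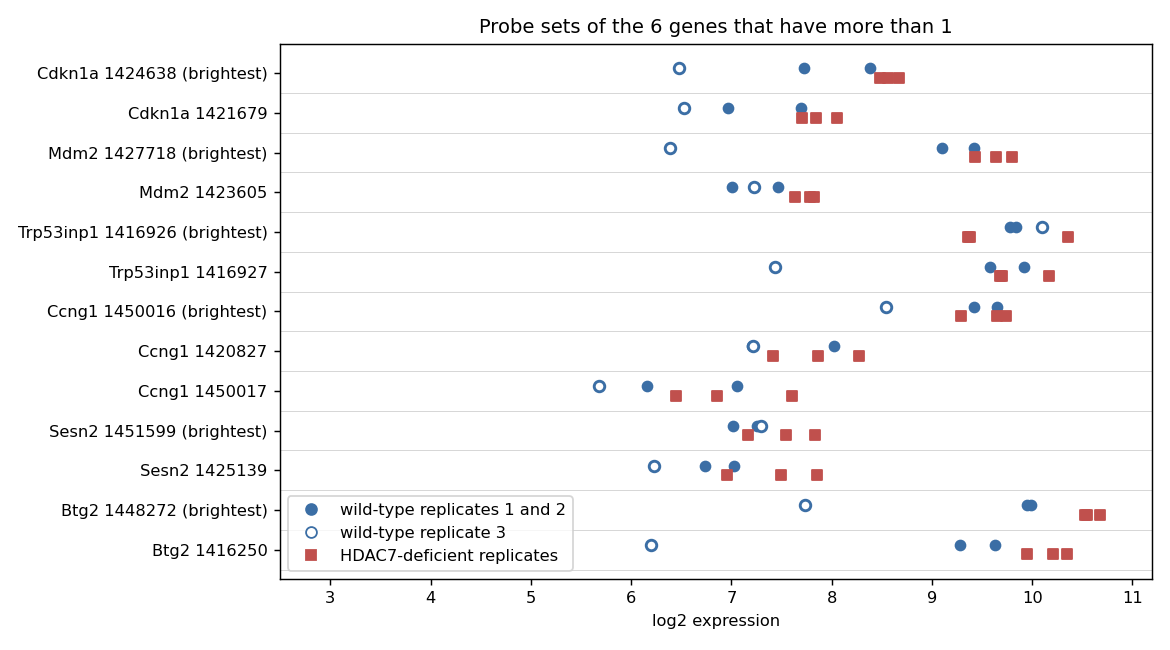
Log2 expression (horizontal axis) on each array for every probe set of the 6 genes that have more than 1, with wild-type replicates 1 and 2 as filled blue circles, wild-type replicate 3 as an open circle and HDAC7-deficient arrays as red squares. The open circle lies far to the left on both Btg2 probe sets, on 1 of the Mdm2 and 1 of the Trp53inp1 probe sets, and among or above the other wild-type arrays on the others of these 2 genes.

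Of 45 further genes of the p53 pathway (regulators, death, repair and arrest genes), 42 were measured; Trp53, Bax and Fdxr were not analysed here. Their directions were mixed. Of all genes, 48% had higher means on the HDAC7-deficient arrays, or 77.8% with the dimmest 50% left out. Of the 42, 26 had higher and 16 lower means, with a median difference of 0.21. None passed; those with an unadjusted p under 0.05 were Pmaip1 and Plk2 (2 higher) and Tnfrsf10b (1 lower), beside 3.52% and 9.14% of all genes. The groups did not overlap for 5 of the 42 higher and 2 lower, where 9.45% and 16.8% of all genes did not. Without wild-type replicate 3 the median of the list was 0.04, with 24 of 42 higher (43.2% of all genes), 4 of them at an unadjusted p under 0.05, and 2 lower at that level (5.19% and 8.84% of all genes).

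The largest difference in this list was that of Pmaip1, which encodes the death factor NOXA. Pmaip1 read 5.58, 5.91 and 5.95 in wild type and 6.55, 8.17 and 8.55 in HDAC7 deficient, so that all HDAC7-deficient arrays were higher and replicate 1 least so. Its difference was 1.94 ± 0.51 (limma adjusted p = 0.377) and 2.01 ± 0.53 without wild-type replicate 3. Within the control-low arrays it was 0.80, within the control-high arrays 2.41.

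Next came the survival genes Mcl1 and Bcl2l1 and the MDM2 relative Mdm4, and these again differed most through wild-type replicate 3. Mcl1 read 9.57, 9.90 and 7.05 in wild type and 10.21, 10.44 and 10.54 in HDAC7 deficient, a difference of 1.55 ± 0.74, or 0.66 ± 0.16 without that array. Bcl2l1 went from 1.30 ± 0.94 to 0.17 ± 0.33. Mdm4, a partner of MDM2 in holding p53 back, went from 1.12 ± 0.60 to 0.42 ± 0.14, with the HDAC7-deficient arrays between 9.99 and 10.04.

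At the other end were Trp63 (-0.82 ± 0.47), a p53 family member of epithelia, the death receptor gene Tnfrsf10b (-0.64 ± 0.26), the DNA polymerase gene Polh (-0.58 ± 0.55) and the arrest gene Rprm (-0.44 ± 0.35). Without wild-type replicate 3 these were -0.31, -0.43, -0.19 and -0.01. Tnfrsf10b was lower on all 3 HDAC7-deficient arrays, which read 6.21, 6.44 and 6.53 against 6.87, 6.77 and 7.45 in wild type. Cdkn2a, whose ARF product protects p53 from MDM2, read 4.54 to 4.94 in wild type and 4.36 to 4.45 in HDAC7 deficient (-0.29 ± 0.15, or -0.17 without that array). Bbc3, which encodes the death factor PUMA, gave -0.14 ± 0.30, with overlapping groups, and 0.04 without it. Pmaip1 and Bbc3, both death genes that p53 switches on, thus had differences of 1.94 and -0.14. The difference between them was not tested. Rprm and Cdkn2a were dim, at percentiles 4.4 and 8.9 of mean expression, and the deposited values give no detection call for them.

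**Figure D4:**
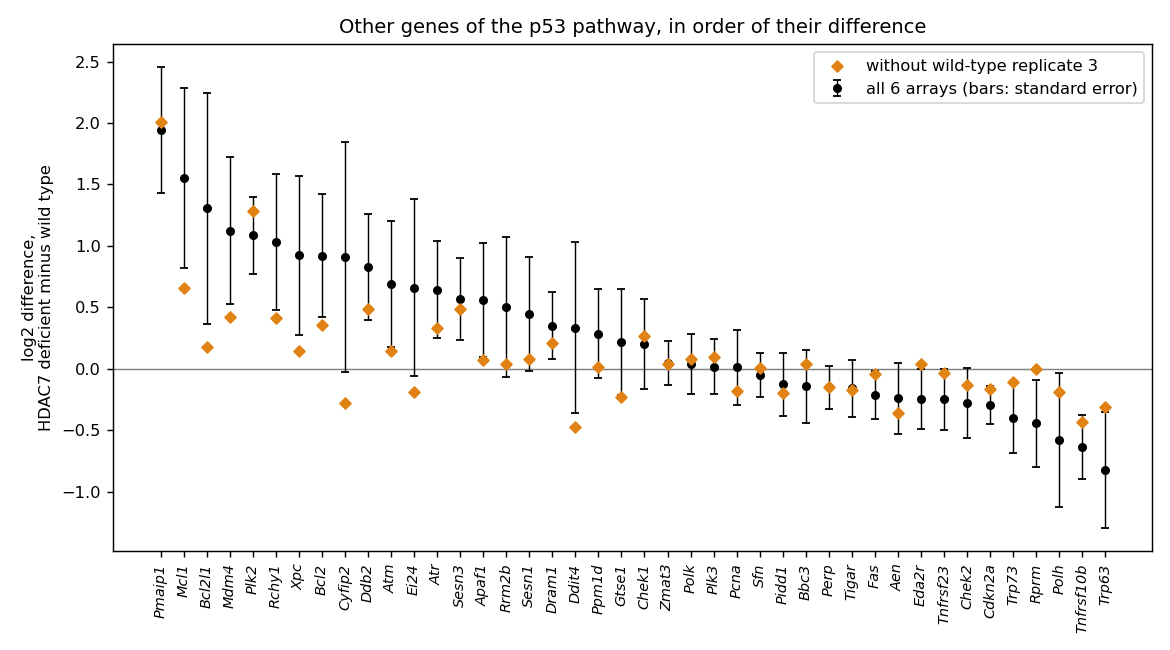
Log2 difference between HDAC7-deficient and wild-type arrays (vertical axis) of the 42 measured further genes of the p53 pathway, ordered by their difference, with all 6 arrays (black, bars are standard errors) and without wild-type replicate 3 (orange diamonds). Pmaip1 is highest at 1.94 and Trp63 lowest at -0.82; the median is 0.21 with all arrays and 0.04 without that array.

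The partners of GADD45 proteins and the stress kinases downstream of them were given by a list of 16 genes, 12 of them measured. With all arrays 11 of 12 had higher means on the HDAC7-deficient arrays (median 0.43), against 48% of all genes. With the dimmest 50% of genes left out that share was 77.8%, and 10 of the 12 were above the median gene in mean expression. Without wild-type replicate 3 only 6 of the 12 had higher means (43.2% of all genes), and their median was -0.03. None reached an unadjusted p under 0.05 in either fit. Map3k4, which encodes the GADD45-activated kinase MTK1, had a difference of 0.41 ± 0.40, and of 0.01 without that array. Highest were the p38 kinase gene Mapk14 at 1.06 ± 0.79, the JNK gene Mapk9 at 0.94 ± 0.75 and the p38 activator gene Map2k3 at 0.77 ± 0.70, which were 0.08, 0.03 and -0.07 without it. Lowest were the DNA glycosylase gene Tdg at -0.59 ± 0.35, the replication clamp gene Pcna at 0.01 ± 0.30 and Gadd45gip1 at 0.07 ± 0.24. Tdg kept its sign without that array (-0.46), whereas Pcna and Gadd45gip1 read -0.18 and -0.14.

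Immediate early genes, the first to be induced by growth and stress signals, also read higher on the HDAC7-deficient arrays. Btg2 and Gadd45b are themselves induced in such responses. Of 21 listed genes 20 were measured, and 18 were higher on the HDAC7-deficient arrays (48% of all genes were). The median difference of the 20 was 1.41, or 1.42 without wild-type replicate 3. The mean level of the 20 was 6.87, 7.11 and 7.48 on the wild-type arrays and 7.83, 9.09 and 8.99 on the HDAC7-deficient arrays. The mean level of the 10 members, in the same order of arrays, was 8.09, 8.38 and 7.31, and 8.55, 8.65 and 8.69. Wild-type replicate 3 was thus the highest wild-type array for the immediate early genes and the lowest for the members. HDAC7-deficient replicate 1 was the lowest of its group in both. Genes of the integrated stress response, which shares Sesn2 as a target, were mixed: of 13 measured, 7 were higher and 6 lower, with a median of 0.22; leaving out wild-type replicate 3 gave 6 higher and a median of -0.04. The part of either list in the differences of the members was not tested.

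Markers of other cell types were looked at on the same arrays. Of all genes, 48% were higher with all arrays and 43.2% without wild-type replicate 3. Within the control-low arrays 45.9% were, and within the control-high arrays 45.8%. The B220+CD43+IgM- gate should remove cells without B220, which most neutrophils, macrophages, T cells, NK cells and erythroid cells lack; plasmacytoid dendritic cells carry B220. The mean level of 5 measured markers of plasmacytoid dendritic cells was 6.85 to 9.56 in wild type and 9.52 to 10.29 in HDAC7 deficient, with 5 of 5 higher; Siglech and Bst2 were not analysed here. Their median difference was 1.49 with all arrays and 0.40 without wild-type replicate 3 (again 5 of 5 higher). Within the control-low arrays the median of these 5 markers was 0.12, with 4 of 5 higher, and within the control-high arrays 3.89. For 7 neutrophil markers the means were 10.03 to 11.17 and 10.89 to 11.48, with 5 of 7 higher both with and without that array (medians 0.50 and 0.25) but 1 of 7 within the control-low arrays. For 8 macrophage markers they were 6.79 to 6.98 and 7.09 to 7.64, with 6 of 8 higher, or 7 without that array (medians 0.27 and 0.25). For 6 NK cell markers they were 7.22 to 8.70 and 8.37 to 8.73, and the median went from 0.60 (4 of 6 higher) to -0.03 (3 of 6) without it. For 4 T cell markers they were 6.80 to 8.12 and 7.81 to 8.61, with 4 of 4 higher in both (medians 0.58 and 0.34). Within the control-low arrays 2 of the 4 T cell markers were higher. For 5 erythroid markers they were 6.88 to 7.25 and 6.68 to 7.67, with 3 of 5 higher, 4 without that array (medians 0.07 and 0.19), and 1 of 5 within the control-low arrays. The 13 pro-B markers gave 8.32 to 9.62 and 9.07 to 9.87, with 10 of 13 higher and a median of 0.23, which turned to 4 of 13 and -0.21 without wild-type replicate 3. On each of the 6 arrays the mean level of the neutrophil markers lay above that of the pro-B markers, so the gate alone does not show that the samples were pure. Array values have no true zero, so no marker can be called absent. The part of other cells in the differences of the members was not tested.

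The genes nearest to Gadd45a in their pattern over the 6 arrays, after each gene was centred on its mean, were Rel, Prpf38b and Nfkbid, with root mean square differences of 0.11, 0.13 and 0.15 log2 units; the median over all genes was 1.04. Rel, a subunit of NF-kB, read 5.84, 6.83 and 5.49 in wild type and 7.18, 7.74 and 8.05 in HDAC7 deficient. Prpf38b read 7.59, 8.36 and 7.19, and 9.23, 9.62 and 9.62. Nfkbid, which encodes an inhibitor of the NF-kB family, read 5.81, 6.57 and 5.30, and 7.07, 7.98 and 7.90. Nearest to Gadd45b were Dock8, Tubb2a and Slc39a11, at 0.04, 0.04 and 0.05 against a median of 0.71. With 6 arrays and 17097 genes such nearness describes these arrays alone.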

How the data were processed

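RNA of 6 samples of sorted pro-B cells was amplified by whole transcriptome amplification, labelled with biotin and hybridised to Affymetrix Mouse Genome 430 PM strip arrays, per the labels' protocols. For each probe set and array the authors deposited a log2 value. That scale was inferred from the values, which lie in the range usual for log2 on this platform; the summarisation and normalization are not given in the sources used. Of 45141 probe sets, 104 controls were set aside. GEO's platform annotation gave 28898 of the other 45037 a single symbol, 551 several and 15588 none; 28689 were brought to current symbols by Entrez number through a RefSeq table (GRCm38.p6). Each of 17097 genes was represented by its probe set of highest mean over the 6 arrays, with no filter on dim genes.

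The comparison used limma 3.58.1 under R 4.3.3 (lmFit, eBayes with intensity trend, two-sided, Benjamini-Hochberg over all genes, threshold 0.05); all adjusted p-values are from limma. The fit was tested on simulated data. The members, gene lists and tests were chosen with earlier results of these data known. Text names all 10 members, and from the wider lists the largest and smallest differences plus genes fixed by name; the names of Plk2, Hspa1b, H1f2, Fos, Fosb and Jun were added once their values had been seen. The number of arrays limits the precision. Alternatives were leaving out each array, replicate number or control division as a block, other normalizations, filters, variance models, array weights and probe set rules. Figures were drawn with matplotlib 3.10.9.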

Additional observations from a re-analysis of the deposited data

How the results depend on the processing

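Gadd45a, Gadd45b, Gadd45g, Cdkn1a, Mdm2, Btg2 and Phlda3 kept their direction in every alternative run that held them; Phlda3 drops out when the dimmest 50% of genes are left out. The direction turned for Trp53inp1 with the mean over probe sets (0.33), within the control-low arrays (0.55) and with the control division as a block without wild-type replicate 3 (0.55), and for Ccng1 (-0.10) and Sesn2 (-0.060) after quantile normalization. Within the control-low arrays the median of the 10 was 0.24, and within the control-high arrays it was 1.45 and that of the GADD45 partners 1.32. With all arrays and no block or weights, no gene passed an adjusted p of 0.1 in limma on the values as deposited, and 2165 genes, 3 of them among the 10, had an unadjusted p under 0.05. Of 17097 genes, 2258 reached an adjusted p under 0.1 in limma without wild-type replicate 2 (Gadd45a and Cdkn1a among them). Without wild-type replicate 3, 25 did (no member). With the control division as a block, 4563 did (Gadd45a, Cdkn1a, Btg2 and Phlda3 among them), and with gene-by-gene array weights 9854, 8 of them members. No member did with the replicate number as a block, nor with the control division as a block without wild-type replicate 3.

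The planned default estimate of array weights did not converge on these arrays and was not used. The gene-by-gene estimate, added after seeing the data, gave weights of 8.68, 0.471 and 0.0716 to wild-type replicates 1 to 3. It gave 0.831, 4.11 and 0.998 to HDAC7-deficient replicates 1 to 3. With it 8449 genes passed, 8 of them among the 10 (7 higher), and at an unadjusted p under 0.05 the p53 list had 9 higher and 6 lower and the GADD45 partners 2 higher and 1 lower, where 23.8% of all genes were higher and 32.4% lower. The cause was not tested.

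With the control division as a block no gene passed; at an unadjusted p under 0.05, 6 members were higher, 17 genes of the p53 list higher and 3 lower, and 4 GADD45 partners higher, where 15.7% of all genes were higher and 27% lower. With that block and without wild-type replicate 3, 4 genes passed (Fos, Fosb, Jun and H1f2), none of them a member. The median of the 10 was then 0.24, 0 members were lower at an unadjusted p under 0.05, the p53 list had 10 higher and 2 lower, and 1 GADD45 partner was higher, where 6.75% of all genes were higher and 7.12% lower. Median centring left 0 of the p53 list lower at that level and moved the median of all genes from -0.03 to 0.10, a shift that every difference shares. Leaving out the dimmest 25% or 50% of genes gave medians of all genes of 0.18 and 0.42; with 50% left out 0 members were lower at that level and the p53 list had a median of 0.50.

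Leaving out each array in turn, the members at an unadjusted p under 0.05 ran from 1 to 6 higher and from 0 to 1 lower, those of the p53 list from 2 to 7 higher and from 0 to 2 lower, and those of the GADD45 partners from 0 to 1 higher. Shares of all genes ran from 0.988% to 10.6% higher and from 2.67% to 23.3% lower; the highest counts of higher genes in the 3 lists and both highest shares came without wild-type replicate 2. Partners with a difference above 0 ran from 6, without wild-type replicate 3, to 11. The replicate number as a block gave 1 call over all genes (Hspa1b, limma adjusted p = 0.0415) and changed no call among the 10; deviations of same-numbered arrays correlated at 0.10, 0.21 and 0.48, and not every array correlated best with its own number, so the numbers were not taken to pair the samples.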
